A study of Mus musculus with 3 samples.

Results

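The genes described here are 9 transcription factors that set the identity of macrophages, monocytes and dendritic cells: Pparg, Maf, Cebpb, Bhlhe40, Bhlhe41, Spi1, Irf8, Zeb2 and Klf4. They were taken by symbol from the 32286 genes of the count matrices, and all 9 were present, each as 1 row. Their messenger RNA was followed across macrophage, monocyte and dendritic cell states in lavage cells of mice whose lungs had been injured with bleomycin, an agent used to model pulmonary fibrosis. There were 3 groups, all given bleomycin into the airways and all sampled on day 14. The first, KO_DMSO, came from Clec7a knockout mice, which have no Dectin-1, a receptor for β-glucans, and which had the vehicle DMSO. The second, WT_GW5074, came from wild-type mice given the kinase inhibitor GW5074, a small molecule. The third, WT_DMSO, came from wild-type mice with the vehicle. Lavage fluid was pooled over the mice of a group, CD11b+ or CD11c+ cells were sorted, and each pool gave 1 droplet 3' library. The labels used here give no number of animals, strain, age, dose or dosing schedule. With 1 pool per group no difference between groups has a replicate check. Intervals below cover counting error alone, and a difference between pools or runs cannot be told apart from one between groups.

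PPARγ, the product of Pparg, is a nuclear receptor that alveolar macrophages turn on under GM-CSF and TGF-β and that governs their handling of surfactant lipid. Resident alveolar macrophages renew themselves in the airspace, C/EBPβ and the related repressors BHLHE40 and BHLHE41 are needed for that, and after injury monocytes enter and mature into a second population beside them. MAF restrains self-renewal and is characteristic of many other tissue macrophages. PU.1, the product of Spi1, is required throughout the myeloid lineage. IRF8 directs the conventional type 1 (cDC1) and plasmacytoid (pDC) dendritic lineages, ZEB2 acts in macrophages, pDC and type 2 dendritic cells (cDC2), and KLF4 acts in monocytes and cDC2.

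Several of these factors read short DNA words, and stretches upstream of 3 of the genes are given to show which of those words lie near their own starts. BHLHE40 and BHLHE41 bind the palindromic E-box CACGTG, ZEB2 the E-box CAGGTG, and KLF4 the word CCACCC. The sequences are from RefSeq (GRCm38.p6), read on the strand of the gene and ending at or before the annotated transcripts of the gene. Capitals mark a match to 1 of these words on either strand.
Bhlhe41, chr6:145865559-145865670, minus strand: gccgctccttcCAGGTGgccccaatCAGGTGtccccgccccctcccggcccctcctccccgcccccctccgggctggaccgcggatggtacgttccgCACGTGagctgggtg
Klf4, chr4:55532476-55532725, minus strand: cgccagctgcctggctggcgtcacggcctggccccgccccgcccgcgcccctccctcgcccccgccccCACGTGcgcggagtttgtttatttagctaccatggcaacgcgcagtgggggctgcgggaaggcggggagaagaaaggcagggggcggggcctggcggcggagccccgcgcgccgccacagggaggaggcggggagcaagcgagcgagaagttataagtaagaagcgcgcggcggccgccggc
Cebpb, chr2:167688665-167688914, plus strand: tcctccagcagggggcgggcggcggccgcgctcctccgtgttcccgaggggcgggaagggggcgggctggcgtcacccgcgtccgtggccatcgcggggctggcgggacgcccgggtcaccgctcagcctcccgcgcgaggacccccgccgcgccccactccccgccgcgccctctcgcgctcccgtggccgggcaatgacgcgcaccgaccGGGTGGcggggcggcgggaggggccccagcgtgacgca
The Bhlhe41 stretch holds CACGTG 153 bases before the RefSeq start and CAGGTG 239 and 225 bases before it. The Klf4 stretch holds CACGTG 182 bases before its start, and the Cebpb stretch holds CCACCC on the opposite strand (GGGTGG) 38 bases before its start. Windows of 250 bases before a start were held for Pparg, Cebpb, Bhlhe41, Irf8, Zeb2 and Klf4, 12 windows in all. CACGTG lay in 2 of the 12 and in 6.02% of all 32851 windows, CAGGTG in 3 of the 12 and in 17.2% of all, and CCACCC in 3 of the 12 and in 28.1% of all. The C/EBP word TTGCNNNAA lay in 1 of the 12, upstream of Zeb2, and in 8.29% of all windows. The PU.1 word GAGGAAGT (2.44% of all) and the IRF word, GAAA repeated after NN (2.98% of all), lay in none of the 12, nor did the longer MAF and PPARγ words (0.00609% and 0.0335% of all). Such matches are descriptions of letters, and 3' libraries do not tell which start a cell used.

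Levels are given as CPM, the UMIs of a gene scaled to a total of 1000000 UMIs summed over the cells of 1 state in 1 library, with exact Poisson 95% intervals. A ratio between 2 sums is given as log2 with an exact binomial 95% interval. It was called higher or lower when it was at least 1.5-fold, the interval left out equality and the gene had at least 10 CPM in 1 of the sums. The kept cells numbered 11642 in KO_DMSO, 17792 in WT_GW5074 and 13454 in WT_DMSO, with 34834077, 45452469 and 39143242 UMIs. Of the barcodes deposited, 80 to 154 were shared between 2 libraries and 0 between all 3. Clec7a itself stood at 14.2 CPM in monocyte-derived macrophages of KO_DMSO, against 753 CPM in WT_GW5074 and 701 CPM in WT_DMSO, which fits the labels.

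States were clusters named from markers that hold none of the 9 genes, and the 9 genes were also kept out of the genes used for clustering. Resident alveolar macrophage-like cells numbered 3227 in KO_DMSO, 3921 in WT_GW5074 and 1278 in WT_DMSO. They formed a Krt19-Htr2c state (192 and 359 CPM of those genes, against 8.45 and 4.64 CPM in the other) and a Cav1-Ear2 state. The Cav1-Ear2 name is weak: Cav1 was 75.9 CPM there, against 44.7 in the Krt19-Htr2c state, Ear2 was 779 against 673 CPM, and Ear1 ran the other way (55.4 against 119.9 CPM). The Krt19-Htr2c state held 1804, 2011 and 435 cells and the Cav1-Ear2 state 1423, 1910 and 843, so Krt19-Htr2c cells were the larger share in KO_DMSO and WT_GW5074 and Cav1-Ear2 cells in WT_DMSO. Monocyte-derived macrophage-like cells numbered 3340, 5573 and 1598, in a C1q-Apoe, a Fstl1-Gpnmb and an Mmp12-Cx3cr1 state. The Fstl1-Gpnmb name rests on Fstl1 (111 CPM, against 4.61 in C1q-Apoe cells), since Gpnmb was near equal (1502 against 1464 CPM) and Mmp14 and Cd63 of the same marker list were higher in C1q-Apoe cells. Its monocyte-derived class is loose too, with 5 of 14 monocyte-derived and 2 of 13 resident markers raised. The resident markers Atp6v0d2 and Ctsk were among its 10 leading genes. Mmp12 was 641 CPM in Mmp12-Cx3cr1 cells, against 116 in C1q-Apoe cells. Of the same marker list Cx3cr1 (153 against 81.0 CPM) and Ccl9 (705 against 317 CPM) ran the same way, and Ms4a7 ran the other way (73.0 against 263 CPM). A cycling cluster with resident markers and a cluster led by interferon-response genes were left unnamed but kept as states. Cells without a class, theirs included, made up 14.2% of KO_DMSO, 19.0% of WT_GW5074 and 14.2% of WT_DMSO. A further unnamed cluster of 2241 cells had 2 of 13 resident markers raised, with Pparg and Ear2 among its 10 leading genes. In the main results it entered the sums over all kept cells but no state or class. The same held for the rest of a mixed neutrophil cluster and for clusters with a high doublet score. Dendritic cells fell into cDC1-like (583, 816 and 528 cells), cDC2-like (267, 429 and 464), pDC-like (21, 29 and 30) and 3 migratory clusters. Monocyte-like cells were few outside WT_DMSO, with 10 in KO_DMSO, 54 in WT_GW5074 and 386 in WT_DMSO. All 13 resident markers were detected in resident cells, where they summed to 9010, 7945 and 7725 CPM, and all 14 monocyte-derived markers summed there to 9289, 10107 and 13120 CPM. Neutrophil RNA was spread widely, with S100a8 at 244, 186 and 408 CPM in resident cells, and neutrophil markers summed to 284, 236 and 585 CPM in them. The part of these marker differences in the results below was not tested.

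**Figure D1:**
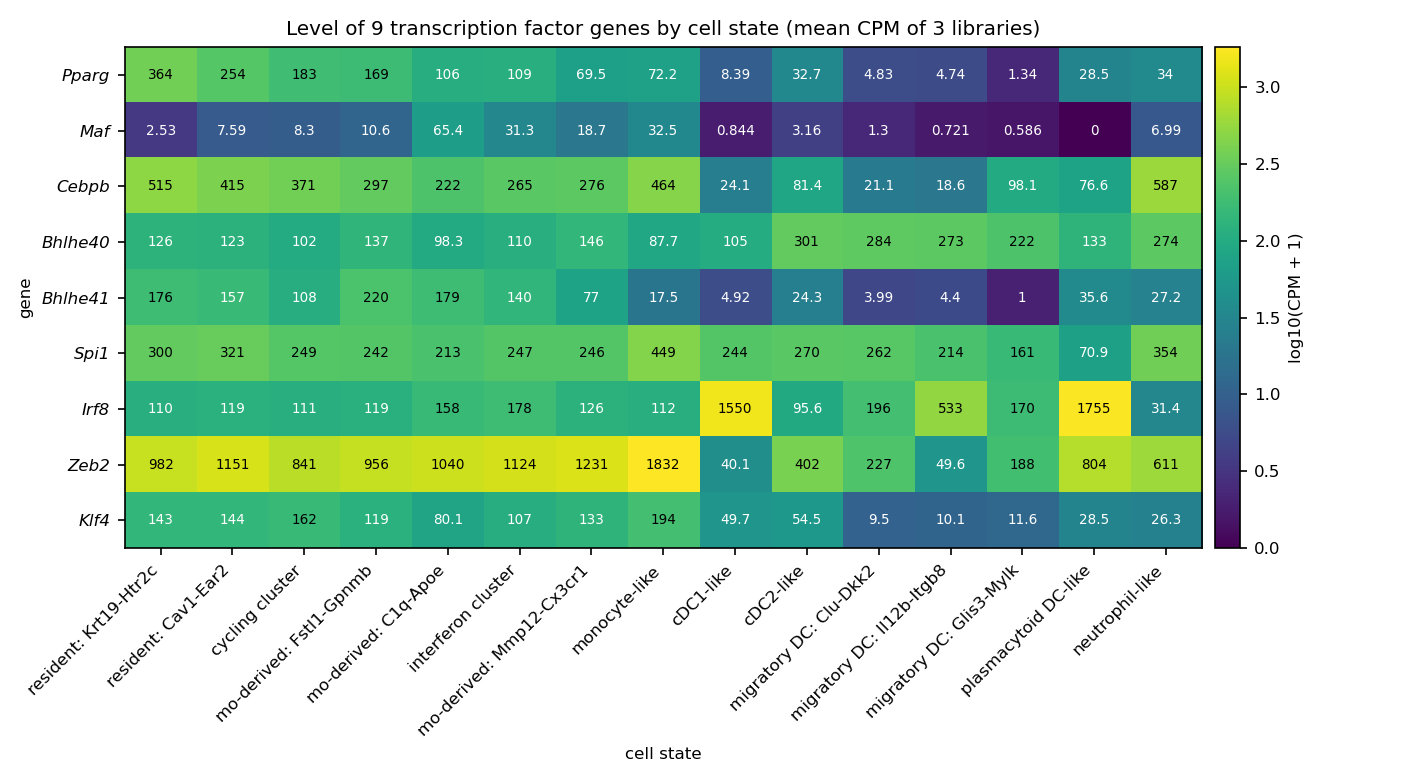
Heat map of the 9 genes (rows) in 15 states (columns), coloured by log10 of the mean CPM over the 3 libraries plus 1. Pparg and Bhlhe41 were highest in macrophage columns, Irf8 peaked in the cDC1-like and pDC-like columns, and Zeb2 was low in the cDC1-like column.

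Pparg was a gene of resident alveolar macrophages and was graded within every macrophage population. In resident cells it stood at 369 CPM [357 to 382] in KO_DMSO, 299 [288 to 310] in WT_GW5074 and 236 [222 to 251] in WT_DMSO. In monocyte-derived cells it stood at 139.7, 109 and 86.2 CPM. The monocyte-derived level was lower in each library, by log2 ratios over resident cells of -1.40 [-1.49 to -1.32] in KO_DMSO, -1.46 in WT_GW5074 and -1.46 [-1.60 to -1.31] in WT_DMSO. Among states the order was Krt19-Htr2c (435, 372 and 284 CPM), Cav1-Ear2 (305, 241 and 217), the cycling cluster (225, 168 and 154), Fstl1-Gpnmb (201, 163 and 144), the interferon cluster (134, 111 and 80.1), C1q-Apoe (130.4, 101 and 85.7) and Mmp12-Cx3cr1 (90.9, 68.5 and 49.1). KO_DMSO and WT_GW5074 had this order, and in WT_DMSO the interferon and C1q-Apoe cells changed places. Among these states the step from Fstl1-Gpnmb to the interferon cluster was the one at which the ranges of neighbours over the 3 libraries did not overlap. Krt19-Htr2c over Cav1-Ear2 cells gave 0.51, 0.62 and 0.39, of which the WT_GW5074 ratio was called (9.35% of all genes called in that library). Monocyte-like cells of WT_DMSO held 112 CPM from 154 UMIs, while those of KO_DMSO and WT_GW5074 held 1 and 4 UMIs. The monocyte-like cells of WT_DMSO also carried 7233 CPM of summed resident markers, against 713 CPM in WT_GW5074. Chil3, 1 of the 13 resident markers, was itself among the 10 leading genes of the monocyte cluster, and its share of the sum was not separated. The part of resident cell RNA in their Pparg level was not tested. cDC1-like cells had 6.18, 13.1 and 5.91 CPM.

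Maf was low in resident cells and high in the C1q-Apoe state. Its level in resident cells was 6.18 CPM [4.67 to 8.02] in KO_DMSO, 4.78 in WT_GW5074 and 5.34 in WT_DMSO, from 56, 46 and 24 UMIs. In monocyte-derived cells it was 27.2 CPM [24.3 to 30.3], 32.0 and 31.6, from 328, 543 and 222 UMIs. The ratio of monocyte-derived over resident cells was 4.40-fold [3.31 to 5.95] in KO_DMSO and 5.93-fold [3.88 to 9.45] in WT_DMSO, and on the log2 scale 2.14, 2.74 and 2.57 in the 3 libraries. The monocyte-derived states were unequal. C1q-Apoe cells had 65.9, 64.5 and 65.9 CPM, Mmp12-Cx3cr1 cells 19.6, 18.7 and 17.9, and Fstl1-Gpnmb cells 9.12, 13.03 and 9.75. The 3 libraries were nearly equal in each, and the 3 states did not overlap. Maf was also present in T-like cells, at 86.6, 86.8 and 121 CPM, the highest of any state and above the C1q-Apoe range, although T-like cells carried monocyte-derived macrophage markers as well (13072, 13713 and 8199 CPM summed). In monocyte-like cells of WT_GW5074 and WT_DMSO it stood at 46.5 and 51.0 CPM. All dendritic cell states were at 6.91 CPM or less.

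Cebpb encodes a leucine zipper factor of macrophages and granulocytes and was high in all myeloid cells other than dendritic cells. Resident cells had 515, 457 and 392 CPM in KO_DMSO, WT_GW5074 and WT_DMSO, and monocyte-derived cells 322, 259 and 219 CPM. The monocyte-derived level was lower in each library, with log2 ratios of -0.68, -0.82 and -0.84. Neutrophil-like cells formed the top of the order at 574, 632 and 556 CPM, with no overlap with Krt19-Htr2c, the next in the order. Every macrophage state lay between 184 and 545 CPM, with C1q-Apoe lowest at 270.0, 212 and 184. cDC1-like cells had 19.6, 31.4 and 21.4 CPM.

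These were the 3 members that separated both macrophage classes. In each library 1 of the 9 (Maf) was called higher and 2 of the 9 (Pparg and Cebpb) lower in monocyte-derived than in resident cells, where 16.7% of all genes tested were called in KO_DMSO, 15.1% in WT_GW5074 and 15.8% in WT_DMSO. The classes are clusters of the same cells, so the differences are a description. Spi1 (-0.40, -0.43 and -0.40) and Klf4 (-0.31, -0.34 and -0.43) were on the lower side in each library without passing 1.5-fold, and Irf8 (0.19, 0.29 and 0.12) was on the higher side.

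Bhlhe41 differed among the monocyte-derived states, while its ratio between the classes stayed under 1.5-fold. Resident cells had 137, 161 and 192 CPM and monocyte-derived cells 134, 161 and 160.4 CPM, with log2 ratios of -0.04, 0.00 and -0.26. These ratios depended on how cells were grouped: with clusters at Leiden resolution 0.5 they were -0.72, -0.58 and -0.83, and over all alternatives the ratio was called lower in 1 of 9 in KO_DMSO and 2 of 9 in WT_DMSO. Fstl1-Gpnmb cells had 188, 230.1 and 242 CPM, the top of the order, and C1q-Apoe cells 159, 179 and 199. Mmp12-Cx3cr1 cells stood at 69.4, 84.7 and 76.8 CPM, below every other macrophage state in each library. Fstl1-Gpnmb over Mmp12-Cx3cr1 cells gave log2 ratios of 1.44, 1.44 and 1.65 for Bhlhe41 and of 1.15, 1.25 and 1.55 for Pparg, all called higher, where 13.6%, 12.5% and 15.2% of all genes were called. Mmp12-Cx3cr1 over C1q-Apoe cells gave -1.20, -1.08 and -1.37 for Bhlhe41, called lower in each library. The same pair gave 0.65, 0.83 and 0.72 for Klf4, called higher, and -1.75, -1.79 and -1.88 for Maf, called lower, against 11.4%, 9.89% and 13.1% of all genes. Each monocyte-derived state thus had its own combination: Maf with Bhlhe41 in C1q-Apoe cells, Pparg with Bhlhe41 in Fstl1-Gpnmb cells, and low Bhlhe41 and Pparg in Mmp12-Cx3cr1 cells. In monocyte-like cells Bhlhe41 stood at 15.5 CPM in WT_GW5074 and 37.1 CPM in WT_DMSO, with log2 ratios over monocyte-derived cells of -3.38 and -2.11, both called lower (background 11.9% and 21.7%). Migratory dendritic cells had 6.07, 4.47 and 2.35 CPM.

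Bhlhe40, the paralog of Bhlhe41, had another distribution, with its highest levels outside the macrophages. cDC2-like cells had 267, 328 and 307 CPM. The Il12b-Itgb8 migratory cluster had 221, 301 and 297 CPM, and the Clu-Dkk2 migratory cluster 237, 296 and 319. Neutrophil-like cells had 368, 182 and 273 CPM. Resident cells had 86.4, 131 and 153 CPM and monocyte-derived cells 96.7, 135 and 153, with log2 ratios of monocyte-derived over resident cells of 0.16, 0.05 and -0.00. Neighbouring states in the order of its levels overlapped throughout the myeloid states. Among macrophage states the Mmp12-Cx3cr1 cells, which were lowest in Bhlhe41, were highest in Bhlhe40, at 108, 157 and 173 CPM.

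Spi1, Zeb2 and Klf4 are factors shared by monocytes and macrophages. Spi1 was even across the macrophage states and conventional dendritic cells. Its levels in macrophage states ran from 197 to 350.3 CPM over the 3 libraries, and those in cDC1-like cells were 269, 250.4 and 213. No neighbouring states were separated in the order until pDC-like cells, the lowest, at 42.9, 107 and 62.7 CPM. Zeb2 encodes a zinc finger repressor and was high in every macrophage state, from 768 to 1299 CPM. Mmp12-Cx3cr1 cells had 1299, 1271 and 1123 CPM, the highest of these states in KO_DMSO and WT_GW5074, while the interferon cluster was highest in WT_DMSO at 1180.2. Monocyte-like cells had Zeb2 levels of 2248, 2014 and 1232 CPM, above those of both macrophage classes in each library. Klf4, which encodes a zinc finger factor required by monocytes, was at 127, 186 and 270.2 CPM in monocyte-like cells and 165, 160.3 and 161 in the cycling cluster. C1q-Apoe cells were the lowest macrophage state in KO_DMSO and WT_DMSO, at 76.7 and 78.4 CPM, and the interferon cluster was lowest in WT_GW5074, at 72.5 CPM. In WT_DMSO, the library with most monocyte-like cells, monocyte-like over monocyte-derived cells gave 1.34 for Klf4 and 0.69 for Maf, both called higher. Of all genes tested 21.7% were called in that comparison in either direction, and 14.8% of all genes tested were called higher.

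**Figure D2:**
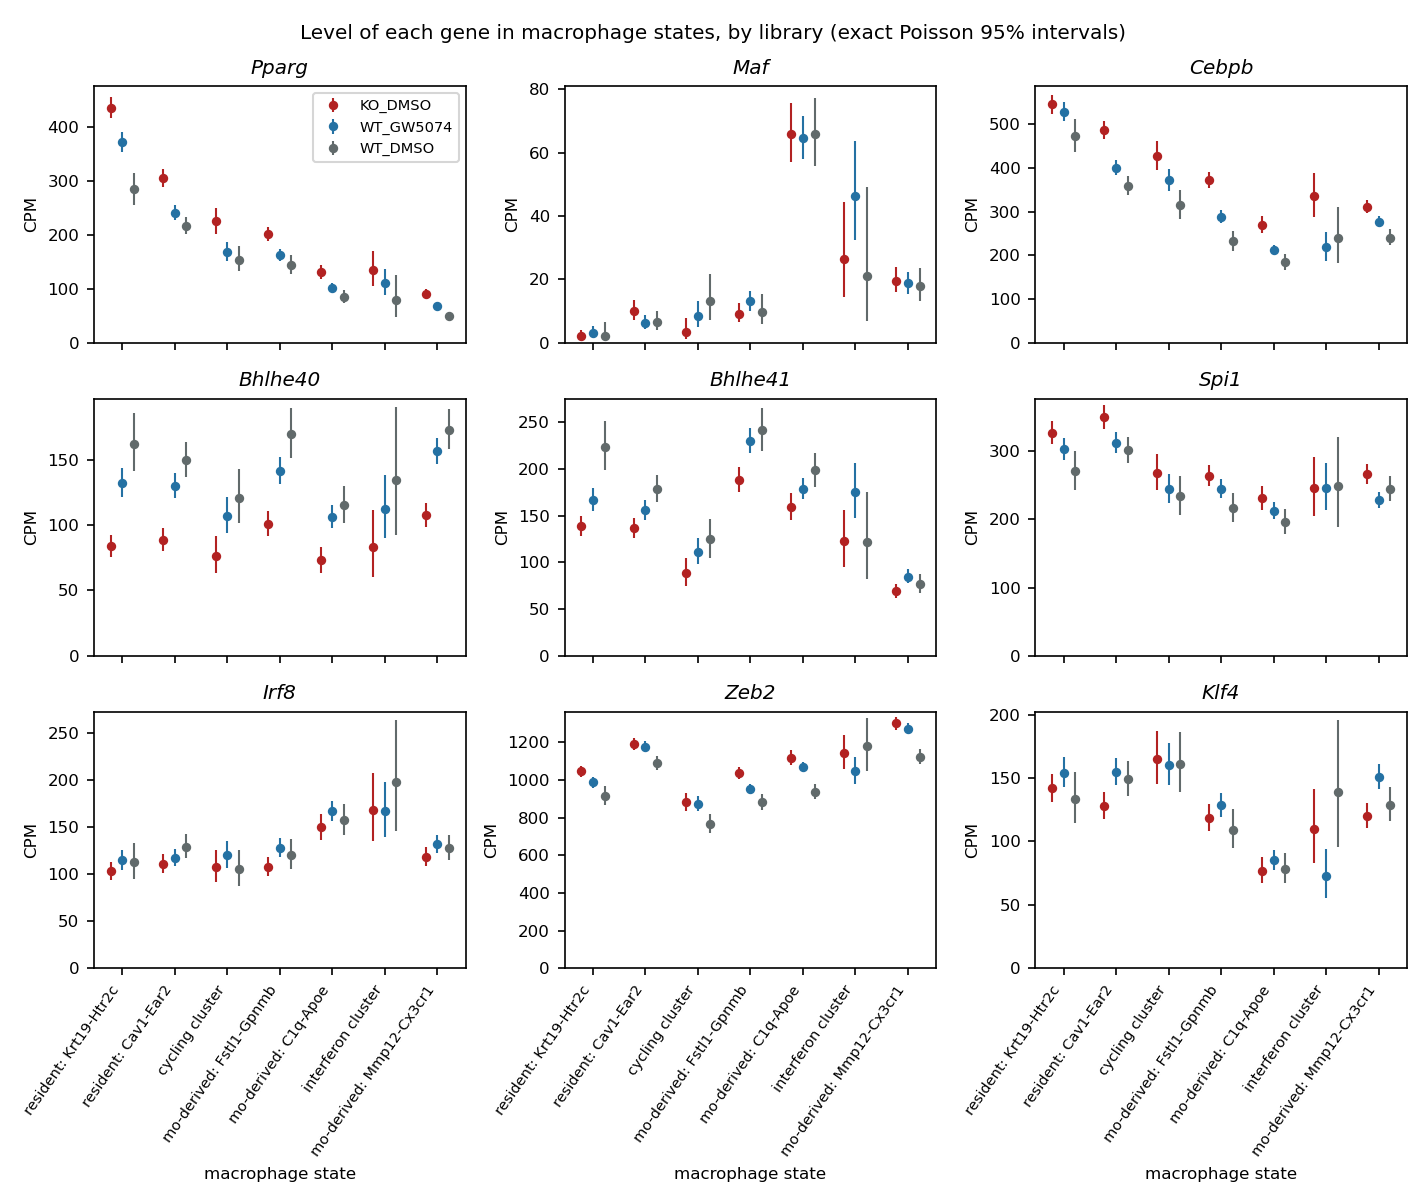
Level in CPM of each of the 9 genes (1 panel each) in 7 macrophage states, with 1 point per library. Pparg falls off along the states from Krt19-Htr2c to Mmp12-Cx3cr1, Maf stands out in C1q-Apoe cells at 64.5 to 65.9 CPM, and the KO_DMSO points of Bhlhe40 lie below those of both WT libraries in all 7 states.

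Irf8 and Zeb2 ran in opposite directions over the dendritic cells. cDC1-like cells had 1359.9, 1689 and 1602 CPM of Irf8 in KO_DMSO, WT_GW5074 and WT_DMSO and 34.0, 59.6 and 26.8 CPM of Zeb2. cDC2-like cells had 94.4, 106 and 86.4 CPM of Irf8 and 461, 492 and 252 CPM of Zeb2. The cDC2-like name is loose, since 5 of 8 cDC2 markers were raised in that cluster beside 4 of 10 migratory ones. By markers per cell 188 of its 1160 cells were cDC2 and 461 migratory. The cDC2-like level over the cDC1-like level was -3.85, -3.99 and -4.21 for Irf8, called lower in each library, and 3.76, 3.05 and 3.23 for Zeb2, called higher, where 29.6%, 29.4% and 32.2% of all genes were called. Bhlhe40 (2.04, 1.41 and 1.28), Cebpb (2.25, 1.56 and 1.46) and Bhlhe41 (2.26, 2.19 and 2.70) were called higher in cDC2-like cells too. pDC-like cells, 21 to 30 per library, were the exception to the opposition, with Irf8 at 1331, 1754 and 2180.3 CPM and Zeb2 at 816, 1048 and 549 CPM. ZEB1, the relative of ZEB2, was present in conventional and migratory dendritic cells alike: Zeb1 stood at 226, 208 and 193 CPM in cDC1-like cells, 217, 165 and 194 in cDC2-like cells and 421, 411 and 363 in the Clu-Dkk2 migratory cluster. The named macrophage states had 10.8 to 32.3 CPM of Zeb1, while T-like cells had 214, 188 and 245 CPM, so it was not particular to dendritic cells.

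The migratory dendritic cells, which mature on their way to the lymph node, were split along the same axis. The Il12b-Itgb8 cluster had 493, 558 and 549 CPM of Irf8 and 46.4, 65.8 and 36.5 of Zeb2. The Clu-Dkk2 cluster had 184, 220.0 and 184 CPM of Irf8 and 181, 281 and 220.1 of Zeb2. Il12b-Itgb8 over Clu-Dkk2 cells gave 1.43, 1.34 and 1.58 for Irf8, called higher, and -1.96, -2.09 and -2.59 for Zeb2, called lower, against 21.3%, 21.6% and 25.6% of all genes. The third migratory cluster, marked by Glis3, Mylk and Ramp3, consisted of 1262 cells in WT_DMSO and of 9 and 22 in the other libraries, and in WT_DMSO its Irf8 was 189.9 CPM and its Zeb2 108 CPM. BATF3, the partner of IRF8 in cDC1, did not follow Irf8 here: Batf3 was 147, 162 and 190.5 CPM in cDC1-like cells and 357, 363 and 344 CPM in the Clu-Dkk2 cluster. Pparg, Cebpb, Bhlhe41 and Klf4 were lower in migratory than in cDC2-like cells in each library, with log2 ratios from -2.96 to -1.13, and 48.2%, 50.4% and 48.5% of all genes were called in that comparison. Against resident macrophages the cDC1-like cells had lower Pparg (-5.90, -4.52 and -5.32), Cebpb, Bhlhe41, Zeb2 and Klf4, and higher Irf8 (3.66, 3.86 and 3.69), where about as many genes were called as not (52%, 49.8% and 50.4%).

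**Figure D3:**
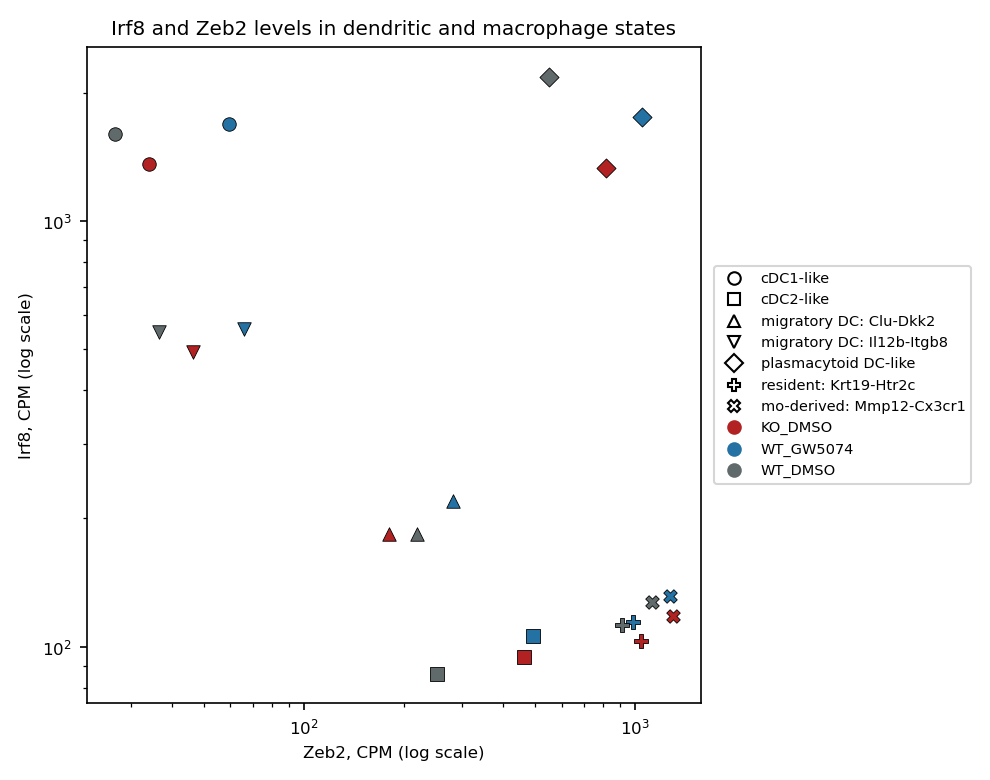
Irf8 against Zeb2, both in CPM on log axes, in dendritic cell states with 2 macrophage states beside them, 1 point per state and library. cDC1-like points lie at the high Irf8 and low Zeb2 corner, cDC2-like and macrophage points at the opposite side, the Il12b-Itgb8 and Clu-Dkk2 migratory clusters between them, and pDC-like points are high in both.

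For KO_DMSO against WT_DMSO, the comparison that asks what loss of Clec7a goes with, 2 members passed in both macrophage classes: Pparg was higher and Bhlhe40 lower. In resident cells Pparg was 369 CPM in KO_DMSO, against 236 in WT_DMSO, a log2 ratio of 0.64 [0.54 to 0.74]. In monocyte-derived cells it was 139.7 CPM, against 86.2, a log2 ratio of 0.70 [0.56 to 0.83]. Bhlhe40 was 86.4 CPM in resident cells of KO_DMSO, against 153 in WT_DMSO (-0.83 [-0.98 to -0.68]), and 96.7 CPM, against 153, in monocyte-derived cells (-0.66, upper bound -0.54). Of all genes, 7.8% were called in resident cells (3.17% higher and 4.63% lower) and 5.4% in monocyte-derived cells (1.65% higher and 3.76% lower). Cebpb was above WT_DMSO in both classes, with 515 against 392 CPM in resident cells and 322 against 219 CPM in monocyte-derived cells, but stayed under 1.5-fold. Bhlhe41 had 137 CPM in KO_DMSO, against 192 in WT_DMSO, in resident cells (-0.48 [-0.61 to -0.35]) and did not pass. Maf was under the minimum level in resident cells and gave -0.22 [-0.47 to 0.03] in monocyte-derived cells. Spi1 (0.21 in both), Irf8 (-0.21 and -0.15), Zeb2 (0.11 and 0.22) and Klf4 (-0.10 and 0.03) did not pass in resident or monocyte-derived cells. Over all kept cells without regard to type, Pparg was 172 CPM in KO_DMSO and 137.6 in WT_GW5074, against 71.6 in WT_DMSO (1.27 and 0.94, with 15.5% and 10.8% of all genes called), so the ratio over the mixture was larger than that within either class. The median log2 ratio of all genes tested was -0.04 in resident and -0.07 in monocyte-derived cells.

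Both macrophage classes were made up differently in the 2 libraries, so the single states bear on these values. In the monocyte-derived class Fstl1-Gpnmb cells made up 34.0% in KO_DMSO, against 23.5% in WT_DMSO. C1q-Apoe cells made up 22.6% against 29.2% of it and Mmp12-Cx3cr1 cells 43.3% against 47.2%. With both resident states given equal weight the Pparg ratio of the resident class was 0.56 and no longer passed, while Bhlhe40 still did. Pparg was above WT_DMSO in 7 of 7 macrophage states, by 0.48 to 0.89, and was called in 3 of them, Krt19-Htr2c (0.61), C1q-Apoe (0.61) and Mmp12-Cx3cr1 (0.89). Of all genes 4.4%, 2.39% and 2.22% were called higher in those states, and 2.87%, 3.15%, 2.98% and 2.05% in the Cav1-Ear2, cycling, Fstl1-Gpnmb and interferon ones. Bhlhe40 was below WT_DMSO in 7 of 7 and was called in 6 of them, with log2 ratios from -0.95 in Krt19-Htr2c to -0.66 in C1q-Apoe and the cycling cluster. The interferon cluster, at -0.70, was the one not called. Of all genes 6.25% were called lower in Krt19-Htr2c, 5.89% in Cav1-Ear2, 5.74% in cycling, 4.71% in Fstl1-Gpnmb, 5.97% in C1q-Apoe, 6.69% in Mmp12-Cx3cr1 and 4.97% in interferon cells. Cebpb was above WT_DMSO in 7 of 7 states and called in 1, Fstl1-Gpnmb (371 against 232 CPM, 0.68). Bhlhe41 was below WT_DMSO in 6 of 7 and called in 1, Krt19-Htr2c (138 against 224 CPM, -0.69). Maf was called lower in the cycling cluster (3.33 against 13.1 CPM, -1.97), from 5 and 15 UMIs. The monocyte-derived and neutrophil marker sums given above were lower in resident cells of KO_DMSO than of WT_DMSO. Without the cells that held any S100a8 or S100a9 UMI the Pparg ratio in resident cells was 0.82.

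WT_GW5074 against WT_DMSO, which asks what the kinase inhibitor goes with, gave no called member in either macrophage class. Pparg was 299 CPM in WT_GW5074, against 236 in WT_DMSO, in resident cells (0.34 [0.24 to 0.44]) and 109 CPM, against 86.2, in monocyte-derived cells, where the lower bound of the ratio was 0.20. Bhlhe40 was 131 CPM, against 153, in resident cells (-0.23 [-0.36 to -0.09]) and 135 CPM, against 153, in monocyte-derived cells (-0.18 [-0.28 to -0.07]). Both intervals left out equality while the sizes stayed under 1.5-fold. The other 7 members lay between -0.25 and 0.24 in both classes. Of all genes 2.25% were called in resident and 1.13% in monocyte-derived cells. Pparg was above WT_DMSO in 7 of 7 macrophage states (0.13 to 0.48) and Bhlhe40 below it in 7 of 7 (-0.30 to -0.11), with 0 called for either. In those states, in the order of the Pparg levels above, 4.41%, 2.38%, 4.97%, 3.72%, 5.71%, 3.79% and 2.58% of all genes were called in either direction. The 1 member called in a macrophage state was Klf4, lower in the interferon cluster (72.5 CPM in WT_GW5074, against 139 in WT_DMSO, -0.94), where 4.02% of all genes were called lower. Monocyte-derived markers summed to 26731 CPM in that cluster in WT_GW5074, against 17905 in WT_DMSO, and their part was not tested. In neutrophil-like cells Klf4 was called higher from 5 and 33 UMIs (1.93), where 5.49% of all genes were. Both contrasts share the WT_DMSO library, so a level peculiar to that pool would enter both.

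In dendritic cells Bhlhe40 was called in cDC1-like cells of KO_DMSO and Zeb2 in several states of WT_GW5074. In cDC1-like cells Bhlhe40 was 64.9 CPM in KO_DMSO, against 126 in WT_DMSO (-0.96 [-1.28 to -0.65]), called lower where 13.9% of all genes were called and 9.31% lower. WT_GW5074 had 124 CPM there. Neutrophil markers summed to 132 CPM in cDC1-like cells of KO_DMSO and 165 in WT_GW5074, against 891 in WT_DMSO, and neutrophil-like cells hold Bhlhe40. Their part was not tested. Irf8, the defining factor of these cells, was 1359.9 CPM in KO_DMSO, against 1602 in WT_DMSO, and did not pass (-0.24). The migratory clusters gave smaller Bhlhe40 ratios that did not pass, -0.43 in both the Clu-Dkk2 and the Il12b-Itgb8 cluster, where 11.3% and 8.97% of all genes were called lower. T-like cells had 57.8 CPM of Bhlhe40 in KO_DMSO, against 121 in WT_DMSO (-1.06), called lower where 10.8% of all genes were. In T-like cells neutrophil markers summed to 257 CPM in KO_DMSO, against 3200.4 in WT_DMSO, and monocyte-derived markers to 13072 against 8199 CPM, and their part was not tested. Zeb2 was the member with most calls in WT_GW5074. It was 59.6 CPM in cDC1-like cells of WT_GW5074, against 26.8 in WT_DMSO (1.15 [0.69 to 1.63], 3.01% of all genes called higher). Pparg was called higher there as well, from 25 and 13 UMIs. The 14 monocyte-derived markers summed to 1181 CPM in cDC1-like cells of WT_GW5074, against 539 CPM in WT_DMSO. The 13 resident markers ran the other way there, at 755 against 988 CPM. The part of either list in this was not tested. Zeb2 was 65.8 CPM in the Il12b-Itgb8 cluster, against 36.5 (0.85, 3.29% called higher), and 187 CPM in all migratory cells, against 125 (0.59, 2.99% called higher). The migratory class had another make-up in each library, with 63.1% of it in the Clu-Dkk2 cluster in WT_GW5074, against 38.9% in WT_DMSO, where the Glis3-Mylk-Ramp3 cluster held 38.8%. Within the Clu-Dkk2 cluster Zeb2 was 281 CPM, against 220.1 (0.35, not called), so level and make-up cannot be told apart in the class value.

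In cDC2-like cells several macrophage genes were higher than in WT_DMSO in both other libraries, and so was the sum of monocyte-derived markers, while that of resident markers was not. Zeb2 was 461 CPM in KO_DMSO and 492 in WT_GW5074, against 252 in WT_DMSO (0.87 and 0.97, both called). Pparg was 34.2 CPM in KO_DMSO and 53.0 in WT_GW5074, against 10.9 in WT_DMSO, from 25, 46 and 17 UMIs (1.65 and 2.28, both called). Cebpb was 93.0 and 92.2 CPM, against 58.9 (0.66 and 0.65, both called), and Bhlhe41 of WT_GW5074 was called as well (1.18). Of all genes 18.4% were called in KO_DMSO (7.43% higher) and 15% in WT_GW5074 (8.75% higher). The 14 monocyte-derived markers summed to 5381 CPM in cDC2-like cells of KO_DMSO and 6334 in WT_GW5074, against 2563 in WT_DMSO, with all 14 detected in the first pair and Fstl1 at 0 in WT_DMSO. The 13 resident markers ran the other way, at 773 CPM in KO_DMSO and 1367 in WT_GW5074, against 1448 in WT_DMSO. The part of either marker list in these results was not tested. When each cell was assigned by its markers instead of by cluster, 188 of the 1160 cDC2-like cells were again cDC2, while 461 went to migratory dendritic cells and 129 to cDC1. By that gate the Cebpb ratios were -0.31 in KO_DMSO and -0.03 in WT_GW5074, and the Bhlhe41 ratio of WT_GW5074 was -0.55. pDC-like cells had lower Irf8 in KO_DMSO, 1331 CPM against 2180.3 in WT_DMSO (-0.71 [-1.17 to -0.27], 1.32% of all genes called lower), from 21 and 30 cells. In those cells monocyte-derived markers summed to 2769 CPM in KO_DMSO, against 376 in WT_DMSO, and neutrophil markers to 85.9 CPM, against 2384, and their part was not tested. Monocyte-like cells of WT_GW5074 had Cebpb at 619.8 CPM, against 304 in WT_DMSO (1.03), Spi1 at 511, against 285 (0.84), and Zeb2 at 2014, against 1232 (0.71), all called higher where 6% of all genes were. Resident markers, among them Chil3 of the monocyte cluster's own leading genes, summed to 713 CPM in those WT_GW5074 cells, against 7233 CPM. Their part was not tested.

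**Figure D4:**
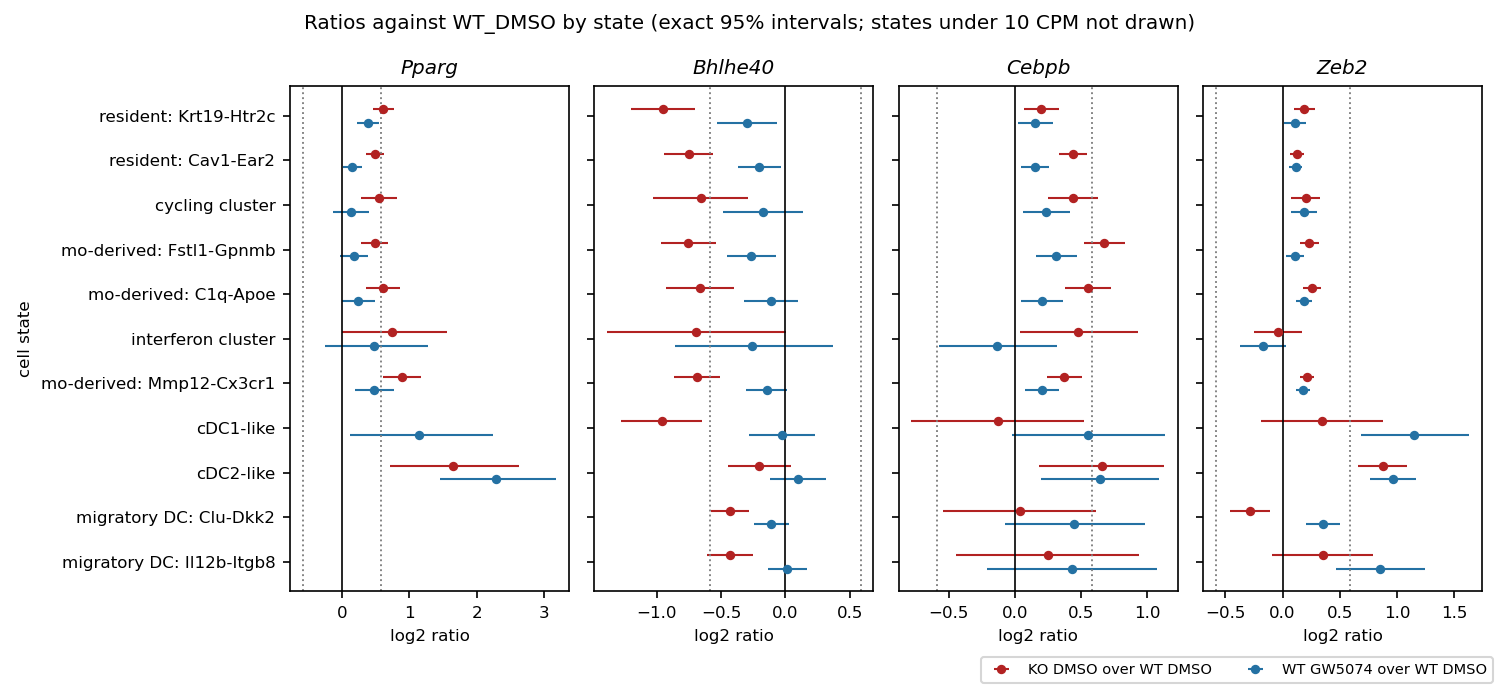
Log2 ratios to WT_DMSO with exact binomial 95% intervals for Pparg, Bhlhe40, Cebpb and Zeb2 in 11 states, for KO_DMSO and WT_GW5074. States in which a gene was under 10 CPM in both sums are not drawn. Bhlhe40 of KO_DMSO is below 0 in each macrophage state shown, and Zeb2 of WT_GW5074 lies furthest above 0 in cDC1-like, cDC2-like and Il12b-Itgb8 cells.

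The other genes of these pathways were read from 5 lists. Among other transcription factors of myeloid lineages, 29 of 35 were tested in resident cells and 32 in monocyte-derived cells. In resident cells of KO_DMSO 0 of 29 were called higher and 3 lower, where 3.17% and 4.63% of all genes were. Those described here are Egr2, an early growth response factor of alveolar macrophages (21.8 CPM, against 38.2 in WT_DMSO, -0.81), and Mafk, a small MAF protein (11.03 against 17.6 CPM, -0.67). The highest ratios of that list were Runx1 (574 against 447 CPM, 0.36) and Cebpd (87.7 against 69.1 CPM, 0.34), which did not pass. In monocyte-derived cells of KO_DMSO, where 1.65% of all genes were called higher and 3.76% lower, 0 of 32 were called higher and 3 lower, Egr2 (15.7 against 31.2 CPM, -0.99), Irf4 (8.54 against 15.4 CPM, -0.85) and Nr4a1 (8.70 against 14.2 CPM, -0.71). The list's median log2 ratio was -0.13 in resident and -0.11 in monocyte-derived cells. In WT_GW5074 0 of the list were called in either class, with medians of 0.03 and 0.10. The receptors that act upstream of these factors, 10 of 13 tested, gave 0 calls in both contrasts and both classes.

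Genes that PPARγ is known to regulate lay on both sides of WT_DMSO. Of 15 lipid genes 12 were tested, against a background of 7.8% of all genes called in resident and 5.4% in monocyte-derived cells of KO_DMSO, and 2.25% and 1.13% in WT_GW5074. In resident cells of KO_DMSO 1 was called higher, the cholesterol exporter Abca1 (54.1 CPM, against 26.7 in WT_DMSO, 1.02), and 2 lower, the fatty acid carrier Fabp4 (248 against 437 CPM, -0.82) and the lipase Lpl (1086 against 1701 CPM, -0.65). In monocyte-derived cells of KO_DMSO the scavenger receptor gene Olr1 was called higher (417 against 204 CPM, 1.03) and the fatty acid receptor gene Cd36 lower (113 against 177 CPM, -0.65). In WT_GW5074 Abca1 was called higher (0.69) and Fabp4 lower (198 against 437 CPM, -1.14) in resident cells, and Fabp4 (160.1 against 258 CPM, -0.69) and Cd36 (-0.60) lower in monocyte-derived cells. The list's median log2 ratio in KO_DMSO was 0.11 in resident and -0.07 in monocyte-derived cells, and in WT_GW5074 -0.09 and -0.27.

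Genes tied to C/EBPβ and BHLHE40 included Arg1, the arginase of alternatively activated macrophages, which had the largest difference of any list. The shares of all genes called in either direction were 7.8% in resident and 5.4% in monocyte-derived cells of KO_DMSO, and 2.25% and 1.13% in WT_GW5074. It stood at 47.0 CPM in resident cells of KO_DMSO and 66.7 in WT_GW5074, against 212 in WT_DMSO (-2.17 and -1.67). In monocyte-derived cells it was 86.9 CPM in KO_DMSO and 125 in WT_GW5074, against 383 in WT_DMSO (-2.14 and -1.62). Arg1 was also the first of the leading genes of the monocyte cluster. Monocyte-like cells numbered 10 in KO_DMSO, 54 in WT_GW5074 and 386 in WT_DMSO, and the part of their RNA in these values was not tested. Of the 10 tested in resident cells of KO_DMSO, 1 was called higher, the chemokine gene Ccl3 (0.70), and 2 lower, Arg1 and the cytokine gene Il1b (58.8 against 98.5 CPM, -0.74). Of the 9 tested in monocyte-derived cells, Arg1 was the 1 called in KO_DMSO, and Arg1 and Ccl3 (21.9 against 36.5 CPM, -0.73) were called lower in WT_GW5074. Among 11 genes tested of the IRF8 and PU.1 list, against 3.17% of all genes called higher and 4.63% lower, 1 was called higher in resident cells of KO_DMSO, the lysozyme gene Lyz2 (0.65), and 3 lower, the fractalkine receptor gene Cx3cr1 (8.16 against 16.2 CPM, -0.99), the integrin gene Itgam (-0.91) and Irf1 (-0.61). In monocyte-derived cells Cd14, a co-receptor for lipopolysaccharide, was called higher (160.0 against 104 CPM, 0.62), and Cx3cr1 (54.5 against 101 CPM, -0.89) and Itgam (133 against 206 CPM, -0.63) lower. Itgam too was among the leading genes of the monocyte cluster, and the part of monocyte RNA in its values was not tested. In WT_GW5074 0 of 11 were called in either class.

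Over 17 states, the genes whose levels went most closely with each member among 9071 genes were read by Pearson's correlation of log2(CPM + 10), a description over points that share 3 libraries. Abcc5, Hebp1 and Ywhab went with Pparg (r of 0.98, 0.97 and 0.97). Apoe, Nlrc3 and C1qc went with Maf (0.86, 0.85 and 0.85), of which Apoe and C1qc are among the markers that named the states. Dmxl2, Msrb1 and Sirpb1c went with Cebpb (0.98, 0.97 and 0.97). Spryd7, Slc38a6 and Glmp went with Bhlhe41 (0.99, 0.98 and 0.98), while its paralog Bhlhe40 had Sbno2, Tmem19 and Ptpn2 (0.89, 0.85 and 0.84), with no gene in common. Dbnl, Mycl and Tlr12 went with Irf8 (0.86, 0.85 and 0.85), and Cdc42, Ralb and Map3k11 with Spi1 (0.89, 0.88 and 0.86). Slc25a5, Parvb and Capn2 went with Klf4 (0.97, 0.96 and 0.96). Zeb2os, Adam10 and Sirpa went with Zeb2 (0.95 each), but Zeb2os is the antisense neighbour of Zeb2 and the use of strand in counting is not given in the sources used here, so that pair is uncertain.

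All 9 genes are protein coding, and their positions are given on mm10 with the gene models of GENCODE M21. Pparg lies on chromosome 6 from 115360951 to 115490399 and Bhlhe40 on the same chromosome from 108660629 to 108666925, both on the plus strand, with Bhlhe41 from 145858243 to 145865558 on the minus strand. Chromosome 2 holds Zeb2 from 44983632 to 45117395 on the minus strand, and Spi1 from 91082390 to 91115756 and Cebpb from 167688915 to 167690418 on the plus strand. Chromosome 8 holds Maf from 115682942 to 115707794 on the minus strand and Irf8 from 120736358 to 120756694 on the plus strand. Klf4 lies on chromosome 4 from 55527143 to 55532466 on the minus strand.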

How the data were processed

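The authors deposited 1 matrix of unnormalized UMI counts per library. Cell Ranger 2.1.1 and mm10 are named in the submitters' processing notes. Per the labels' protocols a SeekOne chip was used, while the description names 10× Genomics. The lowest deposited barcode had 500 UMIs.

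Barcodes with under 200 genes or over 20% mitochondrial UMIs were dropped (36 in KO_DMSO, 17 in WT_GW5074 and 50 in WT_DMSO). On log counts with a total of 10000 for each cell, 2000 variable genes and 30 components fed a graph of 15 neighbours and Leiden clustering at resolution 1 (scanpy 1.11.5, Python 3.11.15). No batch correction was applied. The 9 genes were left out of the variable genes and markers. Of 20 clusters 14 were named, from at least 3 raised markers. Monocyte-like cells are the part of a mixed cluster that formed a monocyte cluster at resolution 2. Scrublet called 0 doublets, so the caller had not worked and none was removed, and clusters with a median doublet score over 0.1 stayed unnamed.

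UMIs were summed per state and library. No p-value was computed, since each group is 1 library. Intervals cover counting error alone. Ratios between libraries needed at least 20 cells on each side, and medians of lists used genes with at least 10 CPM. Genes named from a list were the 2 highest and 2 lowest ratios per contrast with at least 30 UMIs, and the called genes. Alternatives were other cell filters, resolutions, a marker gate per cell, TMM scaling, mean CPM per cell, thinning to 1000 UMIs, doublet scores, a 2-fold rule and no level filter. The members, lists and markers were chosen with earlier results of these data known. The naming thresholds, a detail of the gate, and the alternatives without S100a8 or S100a9 cells and with clusters weighted equally were chosen after seeing the data. The scripts were tested on simulated data. Results for some genes are not reported here.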

Additional observations from a re-analysis of the deposited data

Results flagged for a closer look

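Klf4 moved in opposite directions in WT_GW5074 over WT_DMSO in 2 states. In neutrophil-like cells its log2 ratio was 1.93 [0.22 to 3.30], with 53.6 CPM in WT_GW5074, against 14.1 in WT_DMSO, from 5 and 33 UMIs. In the interferon cluster the ratio was -0.94 [-1.58 to -0.28], with 72.5 CPM in WT_GW5074, against 139 in WT_DMSO, from 58 and 33 UMIs. Summed markers of other classes moved with both. In the interferon cluster monocyte-derived markers summed to 26731 CPM in WT_GW5074, against 17905 in WT_DMSO, resident markers to 2715 against 4055 CPM and neutrophil markers to 396 against 1568 CPM. In neutrophil-like cells monocyte-derived markers summed to 5688 CPM in WT_GW5074, against 2388 in WT_DMSO, and resident markers to 921 against 6624 CPM. Chil3, a resident marker, made up 246 of the 921 CPM in WT_GW5074 and 6307 of the 6624 CPM in WT_DMSO. The lower resident sum of WT_GW5074 thus lay in Chil3, which was found in 84.0% of the WT_DMSO cells. The part of these marker sums, and the difference between the states, was not tested.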

How the results depend on the processing

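No paired analysis was possible because each group is 1 library, and for the same reason no library could be left out. Of 952 ratios of the 9 genes recomputed under an alternative, 739 stayed within their interval, 209 moved and 4 reversed. Pparg and Bhlhe40 were the 2 members called in KO_DMSO in each macrophage class. In resident cells the count was 1, Bhlhe40, under the stricter cell filter and with clusters weighted equally. Under the 2-fold rule it was 0 in resident and 0 in monocyte-derived cells. The Pparg ratio in resident cells ran from 0.43 (stricter cell filter) to 0.82 and was called in 8 of 10 alternatives. In monocyte-derived cells it ran from 0.39 (marker gate, not called) to 0.88 and was called in 9 of 10. Bhlhe40 ran from -0.94 to -0.75 in resident cells, called in 10 of 10, and from -0.90 to -0.58 in monocyte-derived cells, called in 9 of 10. WT_GW5074 gained 1 called member in resident cells, Maf, under the marker gate. In monocyte-derived over resident cells Pparg and Maf were called in 9 of 9 alternatives in each library, and Cebpb in 8 of 9 in KO_DMSO and 9 of 9 in both others. The reversals were all in cDC2-like cells: Cebpb in KO_DMSO (-0.31) and in WT_GW5074 (-0.026) and Bhlhe41 in WT_GW5074 (-0.55) under the marker gate, and Bhlhe41 in WT_GW5074 (-0.14) without the cells of highest doublet score. In cDC2-like cells Pparg of WT_GW5074 was 1.32 and not called without those cells. The cause was not tested. Depth limits Maf in resident cells (24 to 56 UMIs per library), Pparg in cDC2-like cells (17 to 46 UMIs) and every value in monocyte-like cells of KO_DMSO (10 cells).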
